A study of Mus musculus with 6 samples.

Results

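The prostaglandin genes described here are 10 transcripts chosen by name from the 34745 genes of the deposited table: Pla2g4a, Ptgs1, Ptgs2, Ptges, Ptgis, Hpgd and the receptor genes Ptger1, Ptger2, Ptger3 and Ptger4. All 10 were found in the table, and 9 had enough counts to be tested, the exception being Hpgd. They were measured by RNA sequencing in wild-type (WT) primary mouse renal fibroblasts, the stromal cells that lay down matrix in the kidney. One group of 3 libraries came from fibroblasts with no treatment (lone fibroblasts), and another 3 libraries came from fibroblasts kept for 24 h beneath a transwell insert with 0.4 μm pores that held induced Th17 cells (cocultured fibroblasts). To make the Th17 cells, which are helper T cells that secrete interleukin-17, CD4+ T cells had been stimulated through CD3 and CD28 with interleukin-1β, interleukin-6, interleukin-23 and an antibody to interferon-γ. The sources used here do not say whether those cytokines were carried into the coculture, whether lone wells held an empty insert, or how old the mice were. Every library held both Xist and Y-linked transcripts, so each held RNA of both sexes and did not stem from a single mouse. Whether each library stems from its own culture or set of mice is not given. SD, SE and p therefore speak only for variation among these libraries, which may be technical.

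Prostaglandins are short-range lipid signals made from arachidonic acid. A cytosolic phospholipase releases the acid from membranes, a cyclooxygenase turns it into prostaglandin H2, and a terminal synthase converts that intermediate into an end product such as prostaglandin E2 or prostacyclin. Prostaglandin E2 acts through receptors named EP1 to EP4 and is inactivated by a dehydrogenase. In the kidney these lipids are known for their effects on blood flow, on salt and water excretion and on inflammation, and stromal cells are among their sources.

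Fragment totals were between 12050529 and 13209581 per library, and a floor of 3 counts equalled 0.223 to 0.254 CPM, the counts scaled to library size with trimmed mean of M values (TMM) factors. The libraries carried the transcripts of fibroblasts, with all 11 fibroblast markers tested, among them Col1a1 at 2130 and 918 FPKM (fragment counts per unit of gene length and sequencing depth) in lone and cocultured fibroblasts. By edgeR at an adjusted p below 0.05, however, 8 of the 11 were lower and 1 higher in coculture (20.0% and 17.1% of all genes). Of 13 T cell markers 5 had no count in any library, including Cd3d, Il17a and Il17f, and their summed level ranged from 6.21 to 8.69 CPM in lone and from 4.79 to 5.58 CPM in cocultured fibroblasts. The 12 macrophage markers summed to 58.7 to 61.8 CPM in lone and 19.9 to 21.1 CPM in cocultured fibroblasts, and 5 of the 6 tested were lower (20.0% of all genes). Of these, Adgre1 went from 71, 47 and 55 counts to 0 in each cocultured library, and Ptprc from 14, 12 and 11 counts to 0. Cd14, the marker that did not pass, was at 11.2 CPM in both groups. Markers of endothelial cells (6.79 to 8.03 CPM in lone and 2.05 to 3.06 CPM in cocultured fibroblasts) and of epithelial cells (22.2 to 23.8 and 7.83 to 9.11 CPM) were likewise sparse, and mast cell markers reached at most 0.395 CPM. The part of such cells in the results below was not tested, and in bulk samples a smaller number of cells of a type cannot be told from less RNA per cell.

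The comparison between the groups asked how the presence of Th17 cells changes these transcripts. Of the 10 genes, 4 that encode synthetic enzymes rose, with Ptgs2 at 3.24 times, Ptges at 2.97 times, Pla2g4a at 1.55 times and Ptgs1 at 1.34 times the level of lone fibroblasts. Of these 4, only Ptges encodes a terminal synthase of prostaglandin E2, and the others act before its route parts from that of prostacyclin. Prostacyclin synthase, Ptgis, fell to 38.1% of its lone level. None of the 4 EP receptor genes passed the test in edgeR or DESeq2 after adjustment, although 2 of them, Ptger2 and Ptger3, had an unadjusted p below 0.05 in edgeR. The quasi-likelihood test of edgeR was used, with p adjusted by Benjamini-Hochberg over all 13088 genes tested. By this test 4 of the 9 tested prostaglandin genes had an adjusted p below 0.05 and were higher, where 17.1% of all genes tested did so, and 1 was lower, where 20.0% of all genes did so. With a fold change above 2 as a further condition, the criterion of the study's methods, 2 were higher (3.87% of all genes) and 1 was lower (7.78% of all genes). The median log2 fold change of the 9 genes was 0.19, beside 0.0038 for all genes tested. For 7 of the 9 genes the CPM ranges of both groups lay apart, where 50.4% of all genes tested showed no overlap.

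**Figure D1:**
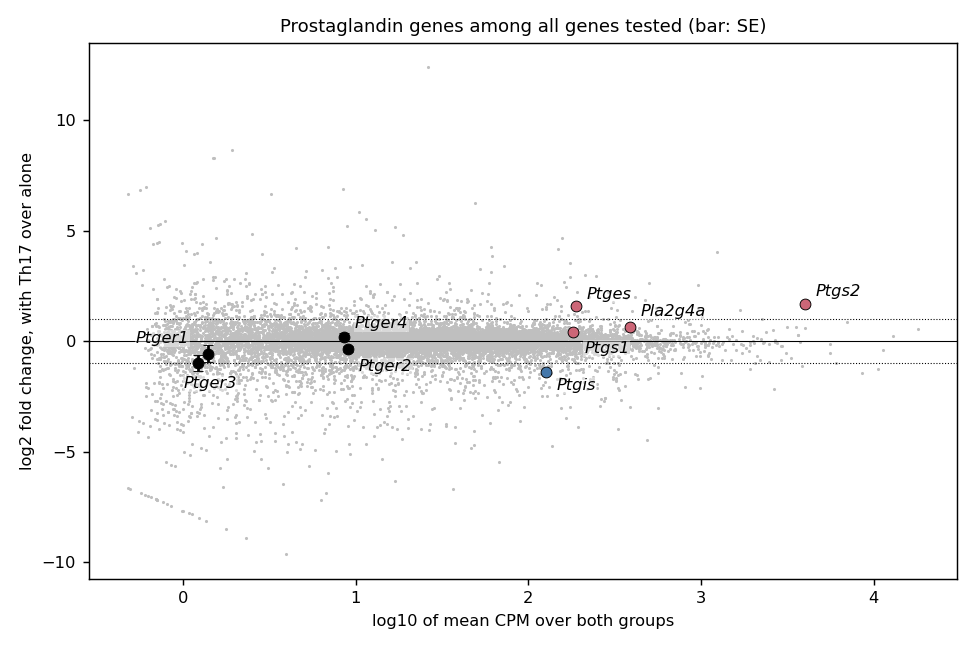
Log2 fold change (with Th17 cells over alone, with SE) against the log10 of the mean CPM over both groups for all 13088 genes tested (grey), with the 9 tested prostaglandin genes marked in red (higher), blue (lower) or black (adjusted p not below 0.05). The dotted lines mark a fold change of 2, and Ptgs2, at a log2 fold change of 1.70, lies furthest to the right of the 9.

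The pathway begins with the release of arachidonic acid. Pla2g4a (ENSMUSG00000056220, chromosome 1, 149829618 to 149961290, minus strand, protein-coding) encodes cytosolic phospholipase A2 alpha, the calcium-dependent enzyme that frees the acid. The lone libraries held 3957, 3967 and 3479 counts of it, and the cocultured libraries held 6509, 5849 and 6235. Every cocultured library was above every lone library. The mean increased from 305 ± 9.81 to 473 ± 12.4 CPM (SD, n = 3 each), a log2 fold change of 0.63 (SE 0.0552 and, by edgeR, adjusted p = 2.5e-05), which is larger than the spread between replicates but under a fold of 2.

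The next step, the cyclooxygenase reaction, is carried by a pair of isoenzymes. Ptgs2 (ENSMUSG00000032487, chromosome 1, 150100031 to 150108227, plus strand, protein-coding) encodes the inducible form, cyclooxygenase-2. It was already abundant in lone fibroblasts, with 25004, 23552 and 22208 counts, and rose to 81171, 74672 and 85530 counts with Th17 cells. The groups lay far apart, and the libraries within each group were close to one another. On the TMM scale the level increased from 1893 ± 42.1 to 6135 ± 332 CPM (SD, n = 3 each), with a log2 fold change of 1.70 (SE 0.057 and, by edgeR, adjusted p = 7.42e-08). Ranked by mean FPKM among all genes of the table, Ptgs2 moved from place 76 in lone fibroblasts to place 17 in cocultured fibroblasts. It took 0.182% to 0.189% of all fragments counted in the lone libraries and 0.596% to 0.669% in the cocultured libraries.

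Ptgs1 (ENSMUSG00000047250, chromosome 2, 36230426 to 36252272, plus strand, protein-coding) encodes cyclooxygenase-1, the form that many tissues express without stimulation. Its counts were 2005, 1969 and 1850 in lone and 2549, 2770 and 2882 in cocultured fibroblasts. Here too the groups did not overlap, but the rise was small, from 156 ± 0.482 to 209 ± 16.7 CPM (SD over n = 3 libraries, log2 fold change 0.42, SE 0.0701 and, by edgeR, adjusted p = 0.00138). Because FPKM is scaled to gene length, the isoenzymes can be set against each other within a library. The FPKM of Ptgs2 was 15.8, 15.1 and 15.2 times that of Ptgs1 in the lone libraries and 40.2, 34.1 and 37.5 times in the cocultured libraries. The ratio therefore increased from 15.4 ± 0.357 to 37.3 ± 3.09 (SD, n = 3 each), by a factor of 2.42. An exact two-sided permutation test of the log2 ratio gave p = 0.1, the smallest value that 3 libraries against 3 allow.

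The promoters of the members with the highest fold changes, Ptgs2 and Ptges, are shown because both genes rose and their start regions can be read side by side. The sequences are from RefSeq on build GRCm38.p6, which matched 8 of the 10 genes, and run from 250 bases before to 50 bases after the annotated start. The Ptgs2 window is chr1:150099781-150100080 (plus strand) and the Ptges window is chr2:30903248-30903547 (minus strand), whose RefSeq start lies inside the longer gene given for Ptges in the deposited table. Capitals mark matches on either strand to motifs chosen with the expression results known.
Ptgs2: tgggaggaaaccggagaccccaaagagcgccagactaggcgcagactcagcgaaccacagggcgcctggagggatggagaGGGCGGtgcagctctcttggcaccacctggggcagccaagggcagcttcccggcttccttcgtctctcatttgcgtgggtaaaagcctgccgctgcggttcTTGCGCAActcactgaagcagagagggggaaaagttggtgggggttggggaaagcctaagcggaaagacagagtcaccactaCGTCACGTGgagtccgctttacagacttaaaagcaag
Ptges: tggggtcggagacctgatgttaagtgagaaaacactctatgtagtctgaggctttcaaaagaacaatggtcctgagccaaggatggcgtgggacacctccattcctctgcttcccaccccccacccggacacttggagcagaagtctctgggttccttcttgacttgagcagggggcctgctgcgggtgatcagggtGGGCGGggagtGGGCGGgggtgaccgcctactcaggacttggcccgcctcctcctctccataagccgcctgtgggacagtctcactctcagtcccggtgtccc
In the Ptgs2 window a C/EBP match (TTNCGNAA) began 69 bases before the start, and a cyclic AMP response half-site (TGACG) and an E-box (CACGTG), which share bases with each other, began at bases 14 and 17 after it. A GC box (GGGCGG) began 170 bases before the start of Ptgs2, and in the Ptges window GC boxes began 53 and 42 bases before the start. Among 32851 promoters of the same length, 2.47% held the C/EBP motif, 20.8% the half-site, 7.15% the E-box and 35.7% the GC box. Neither window held the full cyclic AMP response element TGACGTCA (1.79% of all promoters), the AP-1 motif TGANTCA (7.81%), the NF-kB motif (1.63%) or the letters TATAAA (13.6%). These matches describe the sequence only, and no binding was measured.

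Pla2g4a and Ptgs2 are neighbours on chromosome 1. Their start sites lie 139 kb apart, the genes point away from each other, and 3 annotated genes lie between them, of which 1, Ptgs2os, is in the table. Ptgs2os and Ptgs2os2, noncoding genes on the opposite strand, were examined after their values had been seen. Ptgs2os (ENSMUSG00000097028, chromosome 1, 150074873 to 150099963, minus strand, noncoding) starts 68 bases before Ptgs2 and runs away from it. It had 52, 48 and 65 counts in lone and 140, 125 and 117 counts in cocultured fibroblasts, with no overlap between groups (log2 fold change 1.13, SE 0.176 and, by edgeR, adjusted p = 0.000956). On log2(FPKM + 1), which shrinks the change of genes with low values, its log2 fold change was 0.70. Ptgs2os2 (ENSMUSG00000097754, chromosome 1, 150159043 to 150164948, minus strand, noncoding) lies 50.8 kb past the end of Ptgs2. Its counts rose from 260, 244 and 202 to 949, 738 and 1070 (log2 fold change 1.89, SE 0.132 and, by edgeR, adjusted p = 5.67e-06). Neither overlaps Ptgs2 in the annotation. Whether counting used the strand of a fragment is not given in the sources used here.

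**Figure D2:**
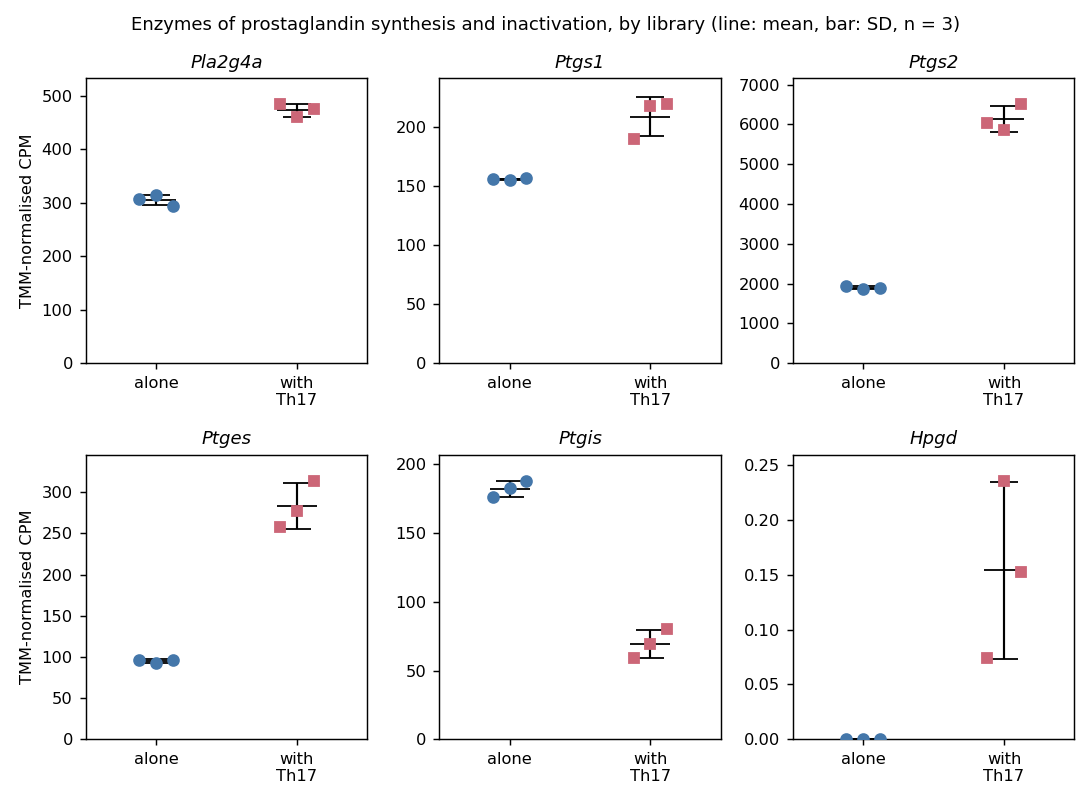
TMM-normalised CPM of Pla2g4a, Ptgs1, Ptgs2, Ptges, Ptgis and Hpgd in each of the 3 lone libraries (blue circles) and the 3 cocultured libraries (red squares), with mean and SD, each panel on its own scale from 0. The 4 synthetic enzymes Pla2g4a, Ptgs1, Ptgs2 and Ptges were higher in every cocultured library than in any lone one, Ptgis was lower in every one, and Hpgd stayed at 3 counts or fewer.

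The last step is terminal synthesis, where Ptges rose and Ptgis fell. Ptges (ENSMUSG00000050737, chromosome 2, 30889471 to 30929863, minus strand, protein-coding) encodes the membrane-bound microsomal synthase of prostaglandin E2, which is often induced together with cyclooxygenase-2. The lone libraries held 1245, 1176 and 1143 counts of it, and the cocultured libraries held 3471, 3529 and 4127. The increase, from 95.4 ± 2.15 to 283 ± 28.4 CPM (SD, n = 3 each), amounted to a log2 fold change of 1.57 (SE 0.0801 and, by edgeR, adjusted p = 7.23e-07). All cocultured libraries exceeded all lone libraries.

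Ptgis (ENSMUSG00000017969, chromosome 2, 167191805 to 167240604, minus strand, protein-coding) encodes prostacyclin synthase, a cytochrome P450 enzyme whose product relaxes vessels and restrains platelets. Its counts decreased from 2271, 2310 and 2226 to 799, 882 and 1051. No cocultured library reached the level of a lone one. The mean went from 182 ± 5.98 to 69.5 ± 10.3 CPM (SD over n = 3 libraries, log2 fold change −1.39, SE 0.102 and, by edgeR, adjusted p = 7.69e-06). Its exons overlap an opposite-strand noncoding gene, 1110018N20Rik, which had at most 8 counts in a library. In lone fibroblasts the FPKM of Ptges was 0.327, 0.304 and 0.306 times that of Ptgis, and in cocultured fibroblasts it was 2.59, 2.39 and 2.34 times that of Ptgis. The mean ratio changed from 0.312 ± 0.0128 to 2.44 ± 0.133 (SD, n = 3 each), a factor of 7.81. This ratio was chosen after the values had been seen, and its exact two-sided permutation test again gave the smallest possible value, p = 0.1. That outcome was fixed beforehand, because Ptges was higher and Ptgis lower in every cocultured library, so the test adds nothing to the values.

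**Figure D3:**
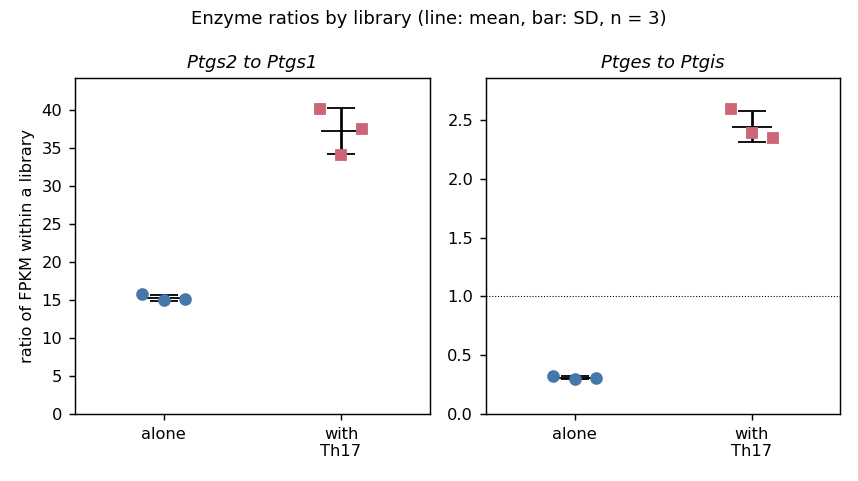
Ratio of FPKM within each library for Ptgs2 to Ptgs1 (left) and Ptges to Ptgis (right), in lone (blue circles) and cocultured (red squares) fibroblasts, with mean and SD for 3 libraries each. Both ratios were higher in every cocultured library, and the Ptges to Ptgis ratio lay below 1 (dotted line) in lone fibroblasts and above it in coculture.

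Hpgd (ENSMUSG00000031613, chromosome 8, 56294552 to 56321046, plus strand, protein-coding) encodes the 15-hydroxyprostaglandin dehydrogenase that begins the breakdown of prostaglandins E and F. No lone library held a count of it (0, 0 and 0), and the cocultured libraries held 1, 3 and 2. Both groups were at or under the floor of 3 counts per library, so no fold change is given, and a difference was not detectable at this depth.

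In FPKM, each of the 4 receptor genes for prostaglandin E2 lay below Pla2g4a, Ptgs1, Ptgs2, Ptges and Ptgis in both groups. Summed over Ptger1 to Ptger4, they reached 4.14 ± 0.133 FPKM in lone and 3.67 ± 0.293 FPKM in cocultured fibroblasts (SD, n = 3 each). Ptger2 (ENSMUSG00000037759, chromosome 14, 44988195 to 45003820, plus strand, protein-coding) encodes EP2, a receptor that raises cyclic AMP. It supplied the greatest part of the sum, 65.1% ± 1.82 in lone and 59.7% ± 4.69 in cocultured fibroblasts. Its counts were 126, 125 and 128 in lone and 101, 96 and 113 in cocultured libraries. The groups did not overlap in CPM, but the log2 fold change of −0.36 (SE 0.13) did not pass the test (edgeR adjusted p = 0.0545). Without cocultured replicate 3 it did, at −0.43 (edgeR adjusted p = 0.0368, with a range of 0.0368 to 0.166 over its alternatives).

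Ptger4 (ENSMUSG00000039942, chromosome 15, 5206661 to 5244187, minus strand, protein-coding) encodes EP4, the other receptor coupled to cyclic AMP. It had 108, 106 and 85 counts in lone and 107, 146 and 105 counts in cocultured fibroblasts. The groups overlapped, and cocultured replicate 2 stood above the rest (log2 fold change 0.19, SE 0.178 and, by edgeR, adjusted p = 0.435). Ptger4 made up 24.9% ± 2.81 of receptor FPKM in lone and 33.5% ± 6.10 in cocultured fibroblasts.

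Ptger3 (ENSMUSG00000040016, chromosome 3, 157566892 to 157645888, plus strand, protein-coding) encodes EP3, which mainly lowers cyclic AMP. It was sparse, with 17, 25 and 19 counts in lone and 9, 8 and 15 counts in cocultured fibroblasts. Its CPM values did not overlap between groups, yet the log2 fold change of −0.997 (SE 0.347) did not pass the test (edgeR adjusted p = 0.05004). The outcome turned on 1 library, since without cocultured replicate 3 the value was −1.32 (edgeR adjusted p = 0.0266, with a range of 0.0266 to 0.179 over its alternatives). Ptger1 (ENSMUSG00000019464, chromosome 8, 83666833 to 83672753, plus strand, protein-coding), the gene of EP1, which signals through calcium, had 21, 15 and 26 counts in lone and 9, 13 and 22 counts in cocultured fibroblasts. These overlapped (log2 fold change −0.57, SE 0.394 and, by edgeR, adjusted p = 0.296). The low counts of Ptger1 are uncertain. Exons of Ptger4 overlap those of Ttc33 on the opposite strand (195 to 283 counts), and those of Ptger2 overlap Gm17173 (at most 13 counts).

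**Figure D4:**
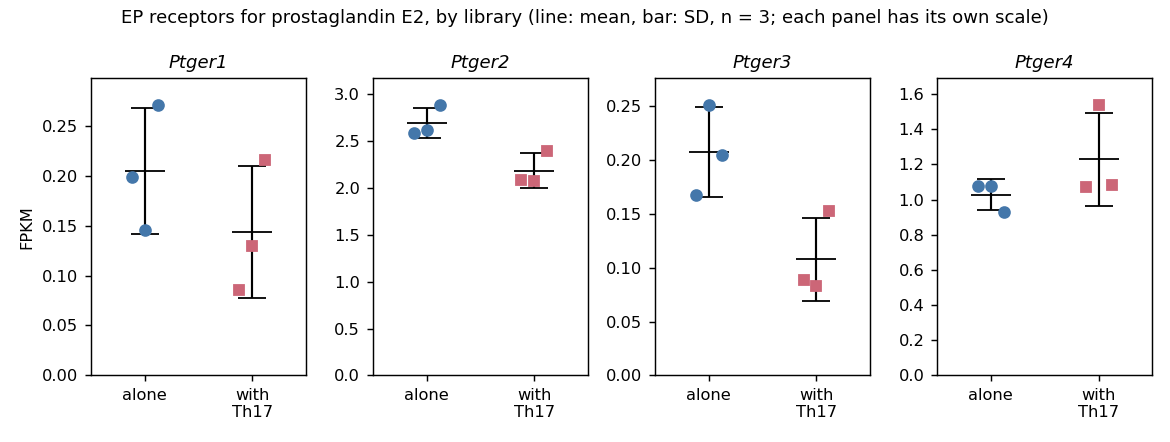
FPKM of the EP receptor genes Ptger1 to Ptger4 in the 3 lone (blue circles) and 3 cocultured (red squares) libraries, with mean and SD, each panel on its own scale from 0. Ptger2 was the most abundant of the 4 in every library, and the groups overlapped for Ptger1 and Ptger4 but lay apart for Ptger2 and Ptger3.

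Ordered by mean FPKM, lone fibroblasts expressed Ptgs2 (394 ± 8.05), Ptgis (56.9 ± 2.04), Pla2g4a (39.2 ± 1.17), Ptgs1 (25.7 ± 0.158), Ptges (17.8 ± 0.415), Ptger2 (2.70 ± 0.162), Ptger4 (1.03 ± 0.0858), Ptger3 (0.208 ± 0.0419), Ptger1 (0.205 ± 0.0628) and Hpgd, which was listed at 0 (SD, n = 3 each). Only the neighbours Ptger3 and Ptger1 overlapped. In cocultured fibroblasts the order was Ptgs2 (1336 ± 80.7), Pla2g4a (63.5 ± 1.94), Ptges (55.1 ± 5.77), Ptgs1 (36.0 ± 2.89), Ptgis (22.7 ± 3.44), Ptger2 (2.19 ± 0.184), Ptger4 (1.23 ± 0.264), Ptger1 (0.144 ± 0.0661), Ptger3 (0.108 ± 0.0386) and Hpgd (0.0915 ± 0.0475). Here Pla2g4a and Ptges overlapped, as did Ptger1, Ptger3 and Hpgd. Ptges and Ptgis exchanged their order.

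To place these genes in their pathway, 36 further genes of prostanoid synthesis, reception, transport and breakdown were examined, of which 21 were tested. At an adjusted p below 0.05, 7 were higher and 7 lower (17.1% and 20.0% of all genes), and with a fold change above 2 none was higher and 3 were lower (3.87% and 7.78% of all genes). Their median log2 fold change was 0.12. Among the phospholipases and their inhibitor, 6 genes were tested, of which 2 rose and 2 fell (17.1% and 20.0% of all genes). Pla2g4c, a calcium-independent relative of Pla2g4a, had 51, 39 and 44 counts in lone and 9, 6 and 6 counts in cocultured fibroblasts (log2 fold change −2.73, SE 0.287 and, by edgeR, adjusted p = 8.37e-05). On log2(FPKM + 1) its log2 fold change was −0.57. Pla2g15, the lysosomal phospholipase, was higher (0.81, SE 0.0816 and, by edgeR, adjusted p = 6.19e-05). Anxa1, which encodes annexin A1, a protein that restrains phospholipase A2, was abundant at 177 FPKM in lone fibroblasts and decreased to 132 FPKM (log2 fold change −0.49, SE 0.0582 and, by edgeR, adjusted p = 0.000194).

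Of the other synthases 6 were tested, with 2 higher and 1 lower (17.1% and 20.0% of all genes). Of the 2, Fam213b (0.61, SE 0.17 and, by edgeR, adjusted p = 0.0198) lost its call without lone replicate 2 or 3 or cocultured replicate 1 or 3, with adjusted p from 0.00887 to 0.0736 over its alternatives. Ptges3, the cytosolic synthase of prostaglandin E2 and a chaperone partner, was at 30.2 FPKM in lone and 34.8 FPKM in cocultured fibroblasts (log2 fold change 0.14, SE 0.0951 and, by edgeR, adjusted p = 0.282). Cbr1, a carbonyl reductase that can convert prostaglandin E2 to F2 alpha, was higher (0.54, SE 0.11 and, by edgeR, adjusted p = 0.00429). The 1 lower synthase gene was Akr1b3 (−0.635, SE 0.0913 and, by edgeR, adjusted p = 0.000593). All 4 tested receptor-related genes outside the EP family were lower, where 20.0% of all genes tested were. Ptgfr, the receptor for prostaglandin F2 alpha, went from 50, 61 and 51 counts to 24, 24 and 16 counts (−1.41, SE 0.235 and, by edgeR, adjusted p = 0.00141). Tbxa2r, the thromboxane receptor, went from 53, 54 and 77 counts to 37, 23 and 18 counts (−1.32, SE 0.30 and, by edgeR, adjusted p = 0.00772). On log2(FPKM + 1) these log2 fold changes were −0.33 for Ptgfr and −0.81 for Tbxa2r. Ptgir, the receptor for prostacyclin, was lower by a smaller margin (−0.62, SE 0.131 and, by edgeR, adjusted p = 0.00508), as was Ptgfrn, which encodes a regulator of the F receptor (−0.47, SE 0.0643 and, by edgeR, adjusted p = 0.000433). Both the synthase and the receptor of prostacyclin were lower in cocultured fibroblasts.

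Of the 5 tested genes of transport and breakdown, 3 were higher and none was lower (17.1% and 20.0% of all genes). Ptgr1, a reductase that acts after the dehydrogenase step, increased by 0.78 on the log2 scale (SE 0.102 and, by edgeR, adjusted p = 0.000347), and Zadh2, the older symbol of another prostaglandin reductase, by 0.62 (SE 0.0716 and, by edgeR, adjusted p = 0.000148). Abcc4, named after its values had been seen, encodes a pump that can export prostaglandins and increased by 0.97 (SE 0.0923 and, by edgeR, adjusted p = 4.24e-05).

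**Figure D5:**
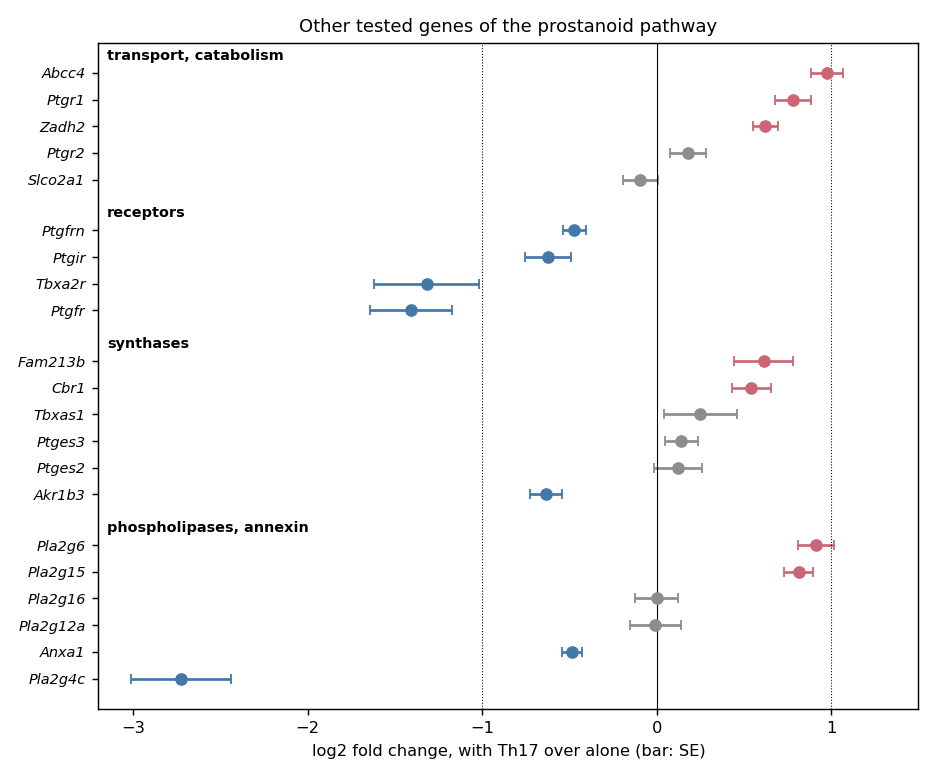
Log2 fold change (with Th17 cells over alone, with SE) of the 21 tested pathway genes outside the 10 described first, grouped by role and coloured red (higher), blue (lower) or grey (adjusted p not below 0.05). The dotted lines mark a fold change of 2, and Pla2g4c, Ptgfr and Tbxa2r lie beyond the lower one.

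Receptors EP2 and EP4 act through cyclic AMP, so 18 genes of cyclic AMP synthesis and response were also examined. All 18 were tested, and 6 were higher and 3 lower at an adjusted p below 0.05 (17.1% and 20.0% of all genes), with a median log2 fold change of 0.20. The 3 lower genes, Fosb, Dusp1 and Pde4b, were near the threshold, with adjusted p from 0.0295 to 0.0452 by edgeR. Higher but under a fold of 2 were Nr4a2, Pde4d, Adcy6 and Adcy7, with adjusted p from 0.000385 to 0.0136 by edgeR. Another 9 of the 18 did not pass the test, among them Crem, Sik1, Per1 and Nr4a3. The 2 past a fold of 2 (3.87% of all genes were higher to that extent) were Rgs2, a brake on G protein signalling, with 70, 50 and 73 counts in lone and 246, 405 and 559 counts in cocultured fibroblasts (2.57, SE 0.307 and, by edgeR, adjusted p = 0.000188), and Areg, the epidermal growth factor family ligand amphiregulin (1.24, SE 0.217 and, by edgeR, adjusted p = 0.00192). The cocultured libraries differed widely for Rgs2, although all were above the lone ones. Nr4a1, an immediate early nuclear receptor (−0.04, SE 0.185 and, by edgeR, adjusted p = 0.903), and Gnas, the stimulatory G protein subunit (0.05, SE 0.0583 and, by edgeR, adjusted p = 0.582), did not pass the test. Their levels were 76.8 and 40.8 FPKM in lone fibroblasts.

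A list of 15 genes held factors that act on Ptgs2 transcription or on the stability of its mRNA. It also held cytokine receptor genes (Il1r1, Il17ra and Il17rc) and signalling genes such as Traf3ip2 and Tnfaip3. Of the 15, 5 were higher and 1 lower (17.1% and 20.0% of all genes), with a median log2 fold change of 0.06. Of the 5, Cebpd (0.41, SE 0.136 and, by edgeR, adjusted p = 0.0404) lost its call without lone replicate 1 or 2 or cocultured replicate 2 or 3, with adjusted p from 0.00674 to 0.135 over its alternatives. Zc3h12a, which encodes Regnase-1, an RNase that degrades inflammatory transcripts, rose from 121 ± 2.15 to 261 ± 6.05 CPM (SD over n = 3 libraries, log2 fold change 1.11, SE 0.0562 and, by edgeR, adjusted p = 6.79e-07). Nfkb1, an NF-kB subunit gene named after its values had been seen, rose by 0.996 on the log2 scale (SE 0.0588 and, by edgeR, adjusted p = 1.85e-06). Rela, Nfkbiz and Tnfaip3 of the same list did not pass the test (edgeR adjusted p = 0.688, 0.555 and 0.838), nor did Il17ra and Il17rc (0.517 and 0.132). The 1 lower gene was Egr1 (−0.59, SE 0.147 and, by edgeR, adjusted p = 0.0122). Cebpb, a C/EBP factor, was at 129 FPKM in lone and 140 FPKM in cocultured fibroblasts (0.06, SE 0.0732 and, by edgeR, adjusted p = 0.558).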

How the data were processed

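The authors removed low-quality reads with Seqtk, mapped the rest with HISAT2 2.0.4, and used StringTie 1.3.3b for fragment counts per gene. They deposited raw counts and, for each count, an FPKM that the authors scaled to gene length and library total. The build was mm10 in the submitters' processing notes, and 34344 gene identifiers were in GENCODE M21. Strand use and the treatment of fragments that fit several genes were not given in the sources used here. One overlap between genes is not reported here.

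Groups and replicate numbers came from the sample titles. The count test was edgeR 4.0.16 under R 4.3.3 (filterByExpr with a minimum count of 10, TMM factors, quasi-likelihood test, Benjamini-Hochberg adjustment). SE is the log2 fold change divided by the square root of F. Of repeated symbols (59), the entry with most counts was used. Levels of different genes were compared as FPKM, and ratios by exact two-sided permutation over libraries. Floors cover counting error only. No library was a copy of another. The fits were tested on simulated data.

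The genes and lists were chosen with earlier results of these data known. From the lists, genes past the threshold (adjusted p below 0.05 and fold above 2) and the 2 with the highest mean FPKM were named, with the genes nearest in pattern to Ptgs2 and Ptgis. Other genes of the lists that carry values were named after their values had been seen. Alternatives were other scaling factors, no filter or a stricter one, DESeq2 1.42.0, limma 3.58.1 on log2(FPKM + 1) and log2(FPKM + 0.1), a replicate block, each library left out, and no fold limit.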

Additional observations from a re-analysis of the deposited data

How the results depend on the processing

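Ptgs2, Ptges, Pla2g4a, Ptgs1 and Ptgis kept their direction and an adjusted p below 0.05 under all 15 alternatives run for each, with log2 fold changes of 1.65 to 1.76, 1.49 to 1.63, 0.61 to 0.70, 0.39 to 0.49 and −1.50 to −1.29. Without a limit on fold change 4 of the prostaglandin genes were higher, and 7 of the other pathway genes were higher and 7 lower. With 1 library left out, 2 prostaglandin genes were higher in each fit and 1 to 2 were lower, and of the other pathway genes 0 to 1 were higher and 3 to 4 were lower. The gene gained among the prostaglandin genes was Ptger3, without cocultured replicate 3. The pathway gene gained as higher was Abcc4, without lone replicate 1, and it was also the 1 gene called with library size only and the 1 called with limma on log2(FPKM + 0.1). With limma on log2(FPKM + 1) 0 of the other pathway genes were lower past a fold of 2, a scale on which low values change less. Left-out libraries moved the log2 change of the Ptgs2 to Ptgs1 ratio between 1.22 and 1.34 and that of the Ptges to Ptgis ratio, added after the data had been seen, between 2.92 and 2.999. Genes that missed the test changed sign in 3 cases, Ptger4 at −0.0015 without cocultured replicate 2 (from −0.0015 to 0.28 with 1 library left out), and Nr4a1 at 0.0288 with library size only and 0.18 without cocultured replicate 1 (from −0.27 to 0.18 with 1 library left out), and the cause was not tested. With the replicate number as a block, 2 prostaglandin genes were higher and 1 lower. In that block fit no call changed for a gene given in the text with its own log2 fold change. Libraries that share a number did not deviate together (correlations of 0.0635, −0.00411 and 0.00917), so the numbers were not treated as pairs. Between 8 and 26 counts per library for Ptger1 and Ptger3 limit what can be said of these receptors.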

Other observations

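The other main fate of arachidonic acid is the lipoxygenase branch that leads to leukotrienes. Of 11 genes listed with this branch, all had a count in a library but only 2 were expressed enough to test. Lta4h, the hydrolase that makes leukotriene B4, was at 30.3 FPKM in lone and 33.3 FPKM in cocultured fibroblasts (log2 fold change 0.07, SE 0.0784, edgeR adjusted p = 0.522). Ephx2, the soluble epoxide hydrolase, was on the list but is not an enzyme of the lipoxygenase branch. Ephx2 was higher with Th17 cells (0.93, SE 0.261, edgeR adjusted p = 0.0211). This call was lost without lone replicate 1 or 3 or without cocultured replicate 1 or 2 (adjusted p from 0.00708 to 0.0778 over its alternatives).

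Among 10036 genes with a mean of at least 100 counts in one of the groups, the genes whose log2 CPM followed Ptgs2 most closely over the 6 libraries were Mmp10, Sorbs2 and Aif1l, with a root mean square difference of 0.0544, 0.0594 and 0.07 after centring. Their log2 fold changes were 1.74, 1.68 and 1.69. Mmp10, a matrix metalloproteinase gene, had 89.9, 91.4 and 82.3 CPM in lone and 282, 287 and 309 CPM in cocultured fibroblasts. Nearest to Ptgis were Tro, Cep128 and Bst2, at 0.061, 0.0713 and 0.0846, with log2 fold changes of −1.46, −1.45 and −1.50. With 2 groups of 3 libraries this likeness mostly measures an equal group difference.

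Xist and the Y-linked transcripts Ddx3y, Eif2s3y, Kdm5d and Uty were all counted in each of the 6 libraries, with 2215 to 3149 counts of Xist and 214 to 284 of Kdm5d. Each library therefore held RNA of both female and male cells.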
